A study of Mus musculus with 8 samples.

Results

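The core circadian clock genes of primary mouse myofibroblastic hepatic stellate cells (pMF-HSCs) are described here in the presence and absence of an inhibitor of O-GlcNAc transferase (OGT), which attaches single O-GlcNAc sugars to nuclear and cytoplasmic proteins. The 10 genes were taken by symbol from the gene tables, namely Clock, Per1, Per2, Per3, Cry1, Cry2, Nr1d1, Nr1d2, Dbp and Tef. They are 10 of the 40840 genes listed, and all 10 were among the 19963 genes with enough counts to be tested. Stellate cells store vitamin A in the healthy liver and become myofibroblasts that lay down matrix once they are activated or put in culture. The cells came from male wild-type C57BL/6J mice aged 15 to 18 weeks, were sorted by the autofluorescence of their retinoids, and were cultured for 7 days. By the sample records, the control group (n = 4) then received the vehicle DMSO, and the OGTi group (n = 4) received OSMI-1, an OGT inhibitor, at 50 µM, both for 24 h. The study's methods describe the controls as not treated. No group carries a genetic change in Ogt, so the comparison is between a compound and its vehicle, and every library comes from a single harvest point. The time of day of harvest is not given in the sources used here. The methods describe the replicates as independent experiments, and a treated and a control culture of one replicate number were compared as a pair.

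The clock is a transcriptional feedback loop that runs in nearly every mammalian cell. CLOCK and BMAL1 (the product of Arntl) bind E-boxes and activate the Per and Cry genes, whose products return to the nucleus and inhibit CLOCK and BMAL1. A companion loop links the nuclear receptors REV-ERBα and REV-ERBβ (Nr1d1 and Nr1d2), which repress Arntl, to the ROR receptors, which activate it. The PAR bZIP factors DBP, TEF and HLF activate genes through D-boxes, where NFIL3 represses. OGT is known to modify clock proteins, among them CLOCK, BMAL1 and PER2. Cultured cells that have not been synchronised usually run out of phase with each other, so a level measured in a whole culture is an average over phases.

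Matches to the clock motifs near the starts of these genes are shown first, because the E-box and the D-box are the letters through which the loop is wired. RefSeq promoter windows (from a table of build GRCm38.p6, 250 bases before to 50 after a gene's start) were matched by symbol for 9 of the 10 genes (not for Per2), with 13 windows in all. Each printed stretch was then placed on GRCm39, the build of the deposited data, by an exact match. Sequences run 5′ to 3′ on the strand of the gene, with the motif in capitals.
Per1 E-box, chr11:68989597-68989626, plus strand: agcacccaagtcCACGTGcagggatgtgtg
Cry1 E-box, chr10:85020961-85020990, minus strand: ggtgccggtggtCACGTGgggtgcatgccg
Tef E-box, first window, chr15:81686735-81686764, plus strand: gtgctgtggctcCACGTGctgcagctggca
Tef E-box, second window, chr15:81695465-81695494, plus strand: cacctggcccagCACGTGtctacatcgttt
Per3 D-box, distal, chr4:151129309-151129338, minus strand: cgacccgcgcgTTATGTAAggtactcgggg
Per3 D-box, proximal, chr4:151129262-151129291, minus strand: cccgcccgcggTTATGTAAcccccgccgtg
The Per1 motif began 166 bases before the start of its window's transcript and the Cry1 motif 60 bases before. The Tef motifs began 127 and 138 bases before 2 different starts, and the Per3 D-boxes 205 and 158 bases before 1 start. The motifs searched on both strands were the E-box CACGTG and the D-box TTATGTAA, which cannot overlap with each other, and the cyclic AMP response element TGACGTCA and the core of the ROR element, TAGGTCA, which can share end bases with an E-box. An E-box was found for 3 of the 9 matched genes and a D-box for 1, while 7.15% and 0.938% of all 32851 windows held these motifs. The other motifs were found for 0 of the 9 genes, against 1.79% of windows for the cyclic AMP response element and 2.61% for the ROR core. A gene was counted over all its windows, so these counts of genes and shares of windows are not on the same unit. All of these stretches but the proximal Per3 one overlapped an exon or UTR of the GENCODE annotation. A match of letters describes the window only.

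The libraries were polyadenylated, stranded RNA-seq libraries and held 30068876 to 37372420 expected counts each, in which 19035 to 23746 genes had a count. The 10 genes with the most counts took 6.73 to 7.76% of the counts of a control library and 10.9 to 15.8% of an OGTi library. TPM is not adjusted for this difference in makeup. The 10 stellate and myofibroblast markers examined, among them Lrat, Des, Pdgfrb, Col1a1 and Acta2, were detected in every library, with a summed TPM of 3555 to 6291 in control and 2954 to 6921 in OGTi, most of it Acta2 and Tagln. In TPM, Lrat (6.51 to 17.96 in control, 2.3 to 2.94 in OGTi), Des (121.6 to 147.2, 62.7 to 116.2), Pdgfrb (56.3 to 170.8, 10.9 to 37.4) and Hand2 (10.7 to 15.1, 3.91 to 7.86) were each lower in every OGTi library than in any control. So was Per2, while the groups overlapped for the other 6 markers (Reln, Lhx2, Col1a1, Col1a2, Acta2 and Tagln). The highest Des value in OGTi (116.2) was close to the lowest in control (121.6). The markers were not compared as counts adjusted for library makeup. Hepatocyte markers summed to at most 1.61 TPM and endothelial markers to at most 0.77. Macrophage markers summed to 16.8 to 36.1 TPM in control and 29.2 to 71.6 in OGTi. Cd68 was the largest part, at 11.02 to 32.3 in control and 25.4 to 69.4 in OGTi, Csf1r was at 2.22 to 6.66 over all libraries, and Clec4f and Adgre1 were below 1. Cholangiocyte markers summed to 85.6 to 140.6 TPM in control and 57.1 to 79.1 in OGTi. Krt19 was the largest part, at 85.1 to 139.1 in control and 46.5 to 72.9 in OGTi, whereas Sox9 was at 0.42 to 1.96 in control and 3.03 to 22.9 in OGTi, and Epcam was below 1. The part of these markers in the results was not tested. A pair of libraries stood apart from the others of their group. Of 11924 well-expressed genes, control replicate 4 had 372 and OGTi replicate 1 had 468 at a level at least 4-fold below the median of the other 3 libraries of the group, against 12 to 97 genes in the remaining libraries. OGTi replicate 1 was also shifted by transcript length, with a median log2 difference from its group of 0.56 for the shortest of 5 length classes of genes and -0.46 for the longest.

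To define how the clock genes responded, scaled counts (read counts put on a common library size) were compared between the groups within the fit over all genes. Upon OGTi treatment, 1 of the 10 clock genes changed, against 18.4% of all genes tested (edgeR quasi-likelihood test blocked on replicate pairs, with a threshold of 0.05 on the Benjamini-Hochberg adjusted p). That gene was Per2, which fell 11.2-fold. Of all genes tested, 8.13% were called higher and 10.2% lower. Over the 10 genes the median log2 fold change was -0.02, beside 0.01 over all genes, with 5 values above 0 and 5 below. The groups did not overlap for 1 of the 10 genes, against 23.5% of all genes, and all 4 pairs moved the same way for 2, against 40.9% of all genes. In a culture, fewer cells that express a gene and less RNA of it per cell cannot be told apart.

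**Figure D1:**
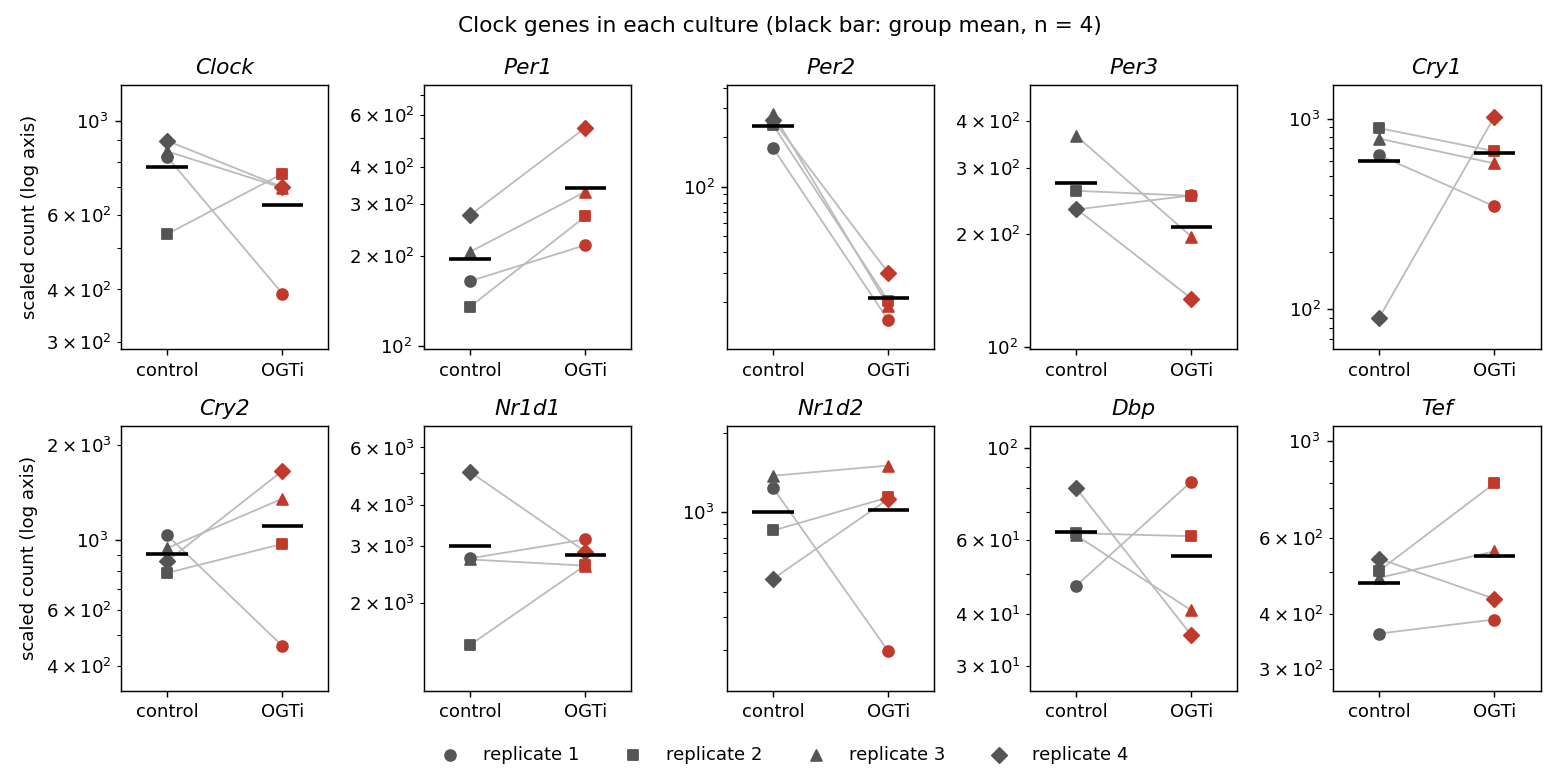
Scaled counts of the 10 clock genes in each culture, on a log axis that differs between panels, with lines joining the control and OGTi cultures of one replicate number and black bars at the group means (n = 4 per group). Per2 is the gene whose OGTi cultures, at 15.4 to 29.9, all lie below its control cultures, at 172 to 277.

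PER2 is the repressor subunit that scaffolds CRY proteins and casein kinase 1 in the negative limb of the loop. Its gene lies at chr1:91343700-91387069 on the minus strand (GRCm39). Control replicates 1 to 4 held 172, 237, 277 and 254 scaled counts of Per2. OGTi replicates 1 to 4 held 15.4, 20.1, 18.8 and 29.9. Every control culture was thus far above every OGTi culture, and the spread within a group was small beside the gap between groups. The means were 235 ± 45.4 (SD, n = 4) in control and 21.0 ± 6.22 (SD, n = 4) in OGTi. The log2 fold change was -3.49 ± 0.31 (SE), with a 95% interval of -4.17 to -2.81 and an edgeR adjusted p of 0.000215. On the linear scale this is an 11.2-fold decrease with an interval of 7.01 to 18.0. The 4 pairs differed by -3.48, -3.56, -3.89 and -3.09 on the log2 scale, so that no pair carried the result. Among the 19963 genes tested, 174 had a lower log2 fold change than Per2 and 36 a smaller adjusted p. The OGTi values rested on 15, 18, 17 and 26 reads, against 187 to 301 reads in control, so a low level of Per2 RNA was still measured in each treated culture.

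PER1, encoded at chr11:68986035-69002300 on the plus strand, is a paralogue of PER2 whose gene is rapidly induced by glucocorticoids and other acute signals. Its scaled counts were 165, 135, 207 and 276 in control replicates 1 to 4 and 218, 272, 329.9 and 542 in OGTi. Each OGTi culture was higher than its paired control in scaled counts, by 0.40 to 1.01 on the log2 scale, although the ranges of the groups overlapped. In TPM, pair 1 went the other way, at 1.44 in control and 1.33 in OGTi. The log2 fold change was 0.77 ± 0.24 (SE), with a 95% interval of 0.23 to 1.3. Per1 was just outside the threshold of the edgeR test, with an unadjusted p of 0.0095 and an adjusted p of 0.0512. It passed in 5 of the 11 alternative analyses, whose adjusted p ranged from 0.00842 to 0.168.

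PER3 takes a smaller part in keeping the rhythm, and its gene lies at chr4:151081373-151129140 on the minus strand. The scaled counts of Per3 were 232, 260.3, 365 and 233 in control and 253, 252, 196 and 134 in OGTi. OGTi replicates 1 and 2 were at the level of their paired controls, whereas replicates 3 and 4 were lower by 0.89 and 0.79 on the log2 scale. The groups overlapped, and the log2 fold change of -0.40 ± 0.27 (SE), with a 95% interval of -1.002 to 0.20, did not pass the test (edgeR adjusted p = 0.351).

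The makeup of the Period transcripts differed between the groups when the 3 genes were set on a scale per transcript length (TPM). Per2 made up 29.6, 37.7, 33.1 and 33.7% of the summed Period TPM in control replicates 1 to 4 and 3.08, 3.57, 3.34 and 4.31% in OGTi. Per1 made up 28.6, 21.8, 23.8 and 36.9% in control and 45.5, 49.1, 60.9 and 76.9% in OGTi. For both genes the shares of the groups did not overlap. Per3 had like mean shares in the groups, 38.7% ± 6.29 (SD, n = 4) in control and 38.3% ± 14.6 in OGTi, with a wider spread in OGTi. The summed TPM was 6.17 ± 1.13 (SD, n = 4) in control and 4.10 ± 0.931 (SD, n = 4) in OGTi. TPM is not adjusted for library makeup as the scaled counts are, and the part of this in the sums was not tested. These shares are a description and follow in part from the fall of Per2 itself.

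**Figure D2:**
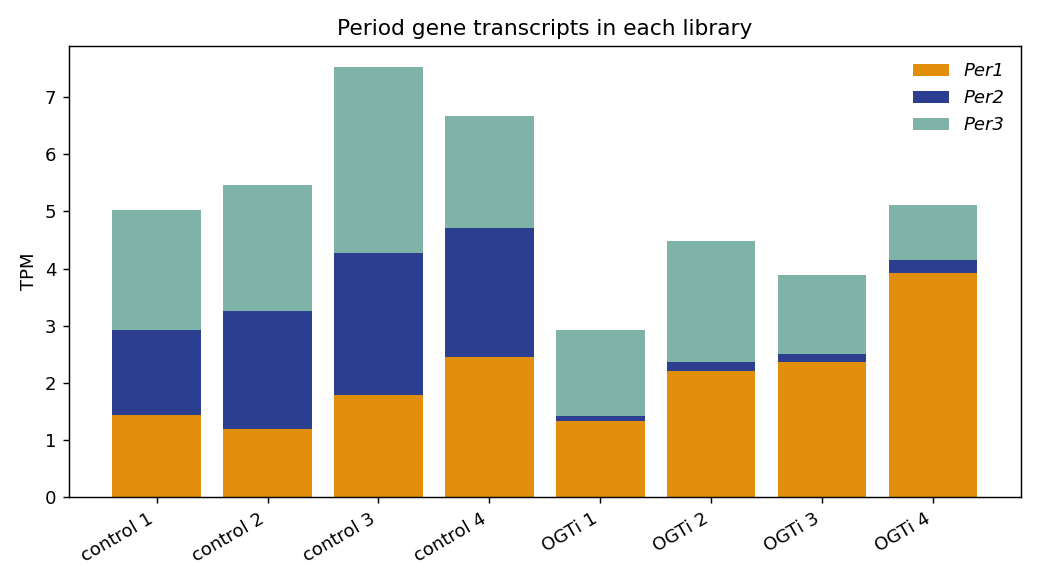
TPM of Per1, Per2 and Per3 stacked for each library, with the height of a bar giving their sum. Per2 takes 29.6 to 37.7% of a control bar and 3.08 to 4.31% of an OGTi bar.

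The cryptochromes CRY1 and CRY2 are the main repressors of CLOCK and BMAL1. Cry1 (chr10:84967560-85021252, minus strand) held 643, 892, 785 and 90.6 scaled counts in control and 347, 675, 583 and 1023 in OGTi. Control replicate 4 was far below the other 3 controls, by 3.12 on the log2 scale, and it is a library that stood apart. In pairs 1 to 3 Cry1 was lower upon OGTi, by -0.89, -0.40 and -0.43 on the log2 scale, whereas pair 4 gave 3.5. The fit over all 4 pairs gave 0.23 ± 0.62 (SE), with a 95% interval of -1.16 to 1.62 (edgeR adjusted p = 0.850). Without replicate 4 the value was -0.56 (adjusted p = 0.213), so its sign was set by that pair and neither value passed the test.

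Cry2 (chr2:92233894-92264474, minus strand) held 1037, 788, 944 and 858 scaled counts in control, a narrow range. In OGTi it held 463, 974, 1354 and 1657. OGTi replicate 1, the other library that stood apart, was lowest of all 8 cultures, and the OGTi cultures of replicates 3 and 4 were above every control. Its log2 fold change was 0.17 ± 0.33 (SE), with a 95% interval of -0.56 to 0.90 (edgeR adjusted p = 0.776), and its sign turned with scaling by library totals and without replicate 4. Without replicate 1 it was 0.59 (adjusted p = 0.0959). The difference was thus within the spread between cultures, and an increase or decrease of the size inside that interval was not detectable.

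REV-ERBα and REV-ERBβ, heme-binding nuclear receptors that repress Arntl, Clock and Cry1, belong to the arm of the loop that sets the rhythm of BMAL1. Nr1d1 (chr11:98658752-98666188, minus strand) held 2744, 1489.7, 2722 and 5047 scaled counts in control and 3136, 2614, 2605 and 2877 in OGTi. The control cultures spread widely around the OGTi cultures, which were close together and lay within the control range. The log2 fold change was 0.03 ± 0.27 (SE), with a 95% interval of -0.56 to 0.63 (edgeR adjusted p = 0.950), and its sign turned with scaling by library totals, without the pairing, and without replicate 1 or replicate 2. On the log2 scale the SD between cultures was 0.72 in control, larger than that of 87.9% of well-expressed genes, and 0.13 in OGTi, larger than that of 2.78%. This difference in spread is a description of 4 cultures per group and was not tested.

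Nr1d2 (chr14:4230545-4266624, plus strand) held 1235, 853, 1376 and 559.8 scaled counts in control and 297, 1139, 1504 and 1123 in OGTi. The lowest cultures were OGTi replicate 1 and control replicate 4, and the remaining 6 cultures of the groups were interleaved. Its fitted log2 difference was -0.07 ± 0.43 (SE), with a 95% interval of -1.04 to 0.89 (edgeR adjusted p = 0.934). Without replicate 1 it was 0.52 (adjusted p = 0.172), and upper-quartile scaling, the length correction and the fit without pairing also put it above 0.

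CLOCK, the partner with which BMAL1 binds DNA, is the E-box activator among the 10 genes. Clock (chr5:76342860-76452846, minus strand) held 823, 541, 848 and 898 scaled counts in control and 391, 750.4, 695 and 698 in OGTi. Pairs 1, 3 and 4 were lower upon OGTi and pair 2 was higher, and OGTi replicate 1 was 0.84 below its group on the log2 scale. Across the pairs the log2 fold change was -0.31 ± 0.27 (SE), with a 95% interval of -0.92 to 0.29 (edgeR adjusted p = 0.483). Leaving out a pair gave -0.54 to -0.0592, the latter without replicate 1.

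The D-box activators Dbp and Tef are output genes of the loop that carry its rhythm to metabolic and detoxification genes. Dbp (chr7:45354512-45359627, plus strand) was the gene with the fewest counts of the 10 in control, at 46.8, 62.4, 61.7 and 80.0 scaled counts in control and 83.0, 61.4, 40.8 and 35.6 in OGTi. Pair 1 was higher and pair 4 lower upon OGTi, by 0.83 and -1.17 on the log2 scale, and the groups overlapped. Its log2 fold change was -0.23 ± 0.40 (SE), with a 95% interval of -1.11 to 0.65 (edgeR adjusted p = 0.743), and without replicate 4 it was 0.0862. Tef (chr15:81686622-81711064, plus strand) held 361, 504, 485 and 537 scaled counts in control and 389, 799.6, 558 and 434 in OGTi. Pairs 1 to 3 were higher and pair 4 was lower, and the fitted log2 value was 0.17 ± 0.24 (SE), with a 95% interval of -0.36 to 0.70 (edgeR adjusted p = 0.685), which scaling by library totals put just below 0.

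Compared per transcript length, the clock genes differed in level by more than an order of magnitude in both groups. Nr1d1 stood highest, at 57.0 ± 28.4 TPM (SD, n = 4) in control and 42.5 ± 3.15 in OGTi, above every other member in every library. Cry2, Nr1d2 and Cry1 followed at 14.3 ± 1.91, 11.7 ± 4.60 and 10.4 ± 6.12 TPM in control, with ranges that overlapped. Tef was at 5.45 ± 0.916 and Clock at 4.51 ± 0.988, again with overlapping ranges. Per3, Dbp, Per2 and Per1 were lowest, at 2.38 ± 0.583, 2.25 ± 0.511, 2.07 ± 0.426 and 1.72 ± 0.551 TPM in control. In OGTi the order of the first 6 genes by mean TPM was the same. Below them Per1 came seventh at 2.46 ± 1.08 TPM, ahead of Dbp at 1.60 ± 0.564 and Per3 at 1.49 ± 0.479, and Per2 came last at 0.15 ± 0.0548 TPM. These values lack the adjustment for library makeup that scaled counts carry, so their differences between groups are not those of the fit. In scaled counts the means of Nr1d1 were 3000 in control and 2808 in OGTi. The cryptochromes, REV-ERBs and D-box factors kept similar mean shares of their pairs. Cry1 made up 38.3% ± 19.5 (SD, n = 4) of the summed Cry TPM in control and 40.0% ± 5.70 in OGTi, Nr1d1 made up 80.6% ± 9.22 and 81.6% ± 9.01 of the REV-ERB TPM, and Tef made up 71.0% ± 1.82 and 75.1% ± 10.5 of the summed TPM of Dbp and Tef. The control mean of Cry1 was lowered by replicate 4, at 10.7%, beside 39.8, 55.2 and 47.6% in replicates 1 to 3.

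All 20 other clock pathway genes listed by role were tested and 6 changed, 2 higher and 4 lower. This is 30% of those tested, against 18.4% of all genes, and the median log2 fold change over the 20 was -0.10, beside 0.01 over all genes. The list was chosen with earlier results of these data known, so its share of calls is a description. Groups did not overlap for 6 of the 20, against 23.5% of all genes, and all pairs moved the same way for 10, against 40.9%. The split depended on the setting, with 4 higher and 4 lower by DESeq2 or with no filter on low counts, 3 and 3 with upper-quartile scaling or the length correction, 1 and 4 with library totals, and 0 and 2 without replicate 3. The calls over all genes moved as well, to 2365 higher and 2468 lower of 19963 by DESeq2, 1978 and 2577 of 27756 with no filter, 2051 and 1732 with upper-quartile scaling, 2101 and 1956 with the length correction, 1256 and 2911 with library totals, and 843 and 1062 of 19243 without replicate 3.

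**Figure D3:**
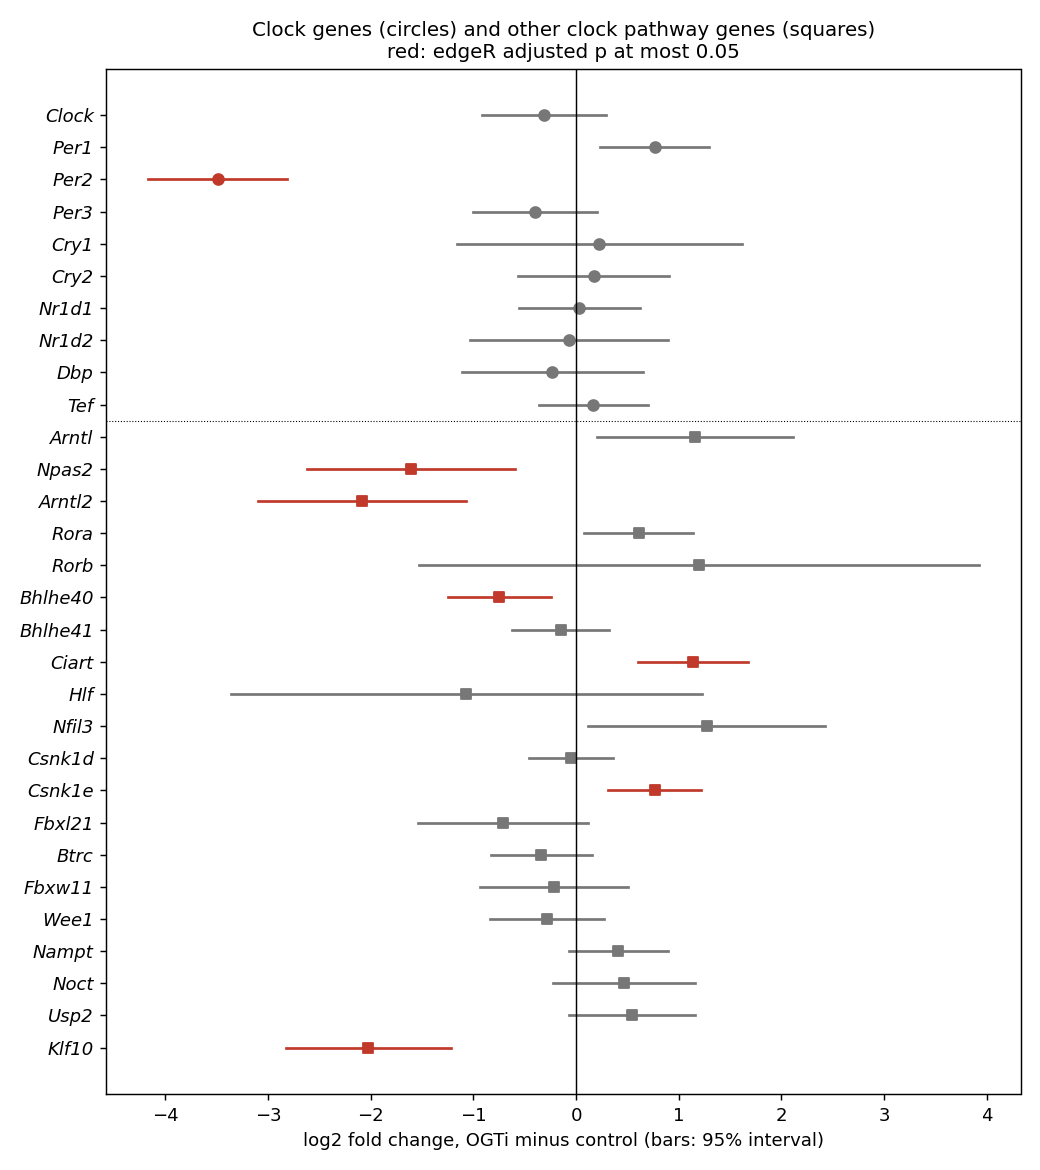
Log2 fold change of OGTi against control for the 10 clock genes (circles, above the dotted line) and 20 other clock pathway genes (squares), with bars for the 95% interval and red for an edgeR adjusted p of at most 0.05. Per2, at -3.49, lies farthest from 0 of all genes drawn, and the interval of Per1 excludes 0 although its adjusted p is 0.0512.

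Among the activators, the paralogues of CLOCK and BMAL1 both fell. Npas2, which encodes the paralogue that can stand in for CLOCK, held 48.6, 81.8, 62.6 and 88.6 scaled counts in control and 23.6, 29.0, 33.1 and 9.19 in OGTi. Every OGTi culture was below every control, and the log2 fold change was -1.61 ± 0.46 (SE, edgeR adjusted p = 0.0347). It passed in 6 of 11 alternatives, and in none of the 4 that left out a pair (adjusted p 0.0574 to 0.124). Arntl2, the gene of BMAL2, held 74.3, 63.3, 118 and 58.8 in control and 6.14, 31.3, 27.6 and 14.9 in OGTi, without overlap. It fell by 2.09 on the log2 scale (SE 0.46, edgeR adjusted p = 0.0110), and passed in all 11 alternatives.

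Arntl itself, the gene of BMAL1, held 915, 778, 776 and 282 scaled counts in control and 903, 1068, 2040.3 and 2146 in OGTi. OGTi replicates 2, 3 and 4 were above every control, control replicate 4 was below every other culture, and OGTi replicate 1 was at the level of its control. The log2 fold change of 1.16 ± 0.43 (SE) did not pass the test (edgeR adjusted p = 0.0905), and it passed in 4 of 11 alternatives. Without replicate 4 it was 0.62 (adjusted p = 0.256). Rora, a ROR receptor that activates Arntl, held 1429, 1608, 1641 and 824 in control and 1918, 1776, 2464 and 2016 in OGTi. Its groups did not overlap, but the log2 fold change of 0.61 ± 0.24 (SE) did not pass (edgeR adjusted p = 0.109), here or in any of the 11 alternatives. Rorb, another ROR gene, did not pass either.

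Repressors other than PER and CRY moved in opposite directions. Ciart (CHRONO, a BMAL1-binding repressor, chr3:95785815-95789991, minus strand) held 249, 229, 311 and 416 scaled counts in control and 780.4, 477, 691 and 680.0 in OGTi. All OGTi cultures lay above all controls, and Ciart rose 2.21-fold (log2 fold change 1.14 ± 0.24 SE, edgeR adjusted p = 0.00938). Without replicate 3 its adjusted p was 0.0522. Bhlhe40, the gene of DEC1, which competes with CLOCK and BMAL1 for E-boxes, held 3153, 2465, 4003 and 4651 in control and 1341, 2019, 2834 and 2374 in OGTi. The groups overlapped at their edges, and it fell by 0.75 on the log2 scale (SE 0.23, edgeR adjusted p = 0.0437). It passed in 5 of 11 alternatives, and not without any one of the pairs (adjusted p 0.0566 to 0.154), without the pairing (0.0964) or with upper-quartile scaling (0.0757). Its paralogue Bhlhe41 held 950.3, 631, 544 and 424 in control and 886, 503, 477 and 429.6 in OGTi, and gave -0.15 ± 0.21 (SE, edgeR adjusted p = 0.684).

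The RefSeq windows of Ciart held 3 matches to the E-box, which are shown because Ciart was the pathway repressor that rose and is a known target of CLOCK and BMAL1.
Ciart E-box, distal, chr3:95789639-95789668, minus strand: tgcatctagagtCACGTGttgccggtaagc
Ciart E-boxes, proximal, chr3:95789574-95789603, minus strand: ggaggCACGTGcagaaccgCACGTGtctgg
The distal motif began 116 bases before the start and the proximal ones 58 and 44 bases before. Of the pathway list, 15 of 20 genes were matched, with 20 windows, and an E-box was found for 2 of them (Ciart and Bhlhe41). The ROR core was found for 2 (Arntl and Nfil3), the cyclic AMP response element for 1 (Hlf) and the D-box for 0. The log2 fold changes of the other genes with an E-box in the window were 0.77 for Per1, 0.23 for Cry1, 0.17 for Tef and -0.15 for Bhlhe41, none of which passed the edgeR test.

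Genes that act on the PER and CRY proteins after translation gave 1 call. Csnk1e, which encodes casein kinase 1ε, a kinase that marks PER proteins for degradation, held 2865, 2144, 2018 and 2414 scaled counts in control and 4449, 3350.2, 4547 and 3681 in OGTi. Its groups did not overlap, and it rose 1.70-fold (log2 fold change 0.76 ± 0.20 SE, edgeR adjusted p = 0.0265). It passed in 7 of 11 alternatives, and in 1 of the 4 that left out a pair. Csnk1d, Fbxl21, Btrc and Fbxw11 did not pass. Among output genes, Klf10, a TGF-β-inducible repressor under clock control, held 1787, 1598, 2866 and 3119.7 in control and 152, 623, 1077 and 836 in OGTi. It fell 4.06-fold without overlap of the groups (log2 fold change -2.02 ± 0.36 SE, edgeR adjusted p = 0.00424). Wee1, Nampt, Noct and Usp2 did not pass.

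On the D-box side, the repressor Nfil3 held 195, 791, 401 and 134 scaled counts in control and 694, 414, 925 and 955 in OGTi. Replicates 1, 3 and 4 were higher and replicate 2 was lower, and the log2 fold change of 1.27 ± 0.52 (SE) did not pass (edgeR adjusted p = 0.121). It passed in 3 of 11 alternatives, and without replicate 2 it was 1.97 (adjusted p = 0.00965). Without replicate 1 it was 1.04 (adjusted p = 0.329) and without replicate 4 it was 0.74 (adjusted p = 0.389). Hlf was near the limit of detection at 46 reads in all 8 libraries together, with a log2 fold change of -1.07 ± 1.03 (SE, edgeR adjusted p = 0.530).

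The clock genes also varied between cultures of one group. In control, Cry1 had an SD of 1.55 on the log2 scale, larger than that of 98.2% of well-expressed genes, beside a median of 0.28 over those genes. That SD came from control replicate 4, at 90.6 scaled counts against 643 to 892 in the others. Nfil3 had an SD of 1.14 in control and Arntl one of 0.78, again with replicate 4 lowest, at 282 against 776 to 915 for Arntl, while Cry2 and Tef, at 0.17 and 0.25, were below that median. In OGTi, where the median over genes was 0.42, Nr1d2 had the largest SD of the 10 genes, at 1.05, and Nr1d1 the smallest, at 0.13. OGTi replicate 1 was the lowest of its group for Clock, Per1, Per2, Cry1, Cry2, Nr1d2 and Tef and the highest for Nr1d1, Per3 and Dbp. It is also the library with lower values for long transcripts, and the part of that in these values was not tested beyond the alternative that removes each library's trend with length, under which Per2 remained called.

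**Figure D4:**
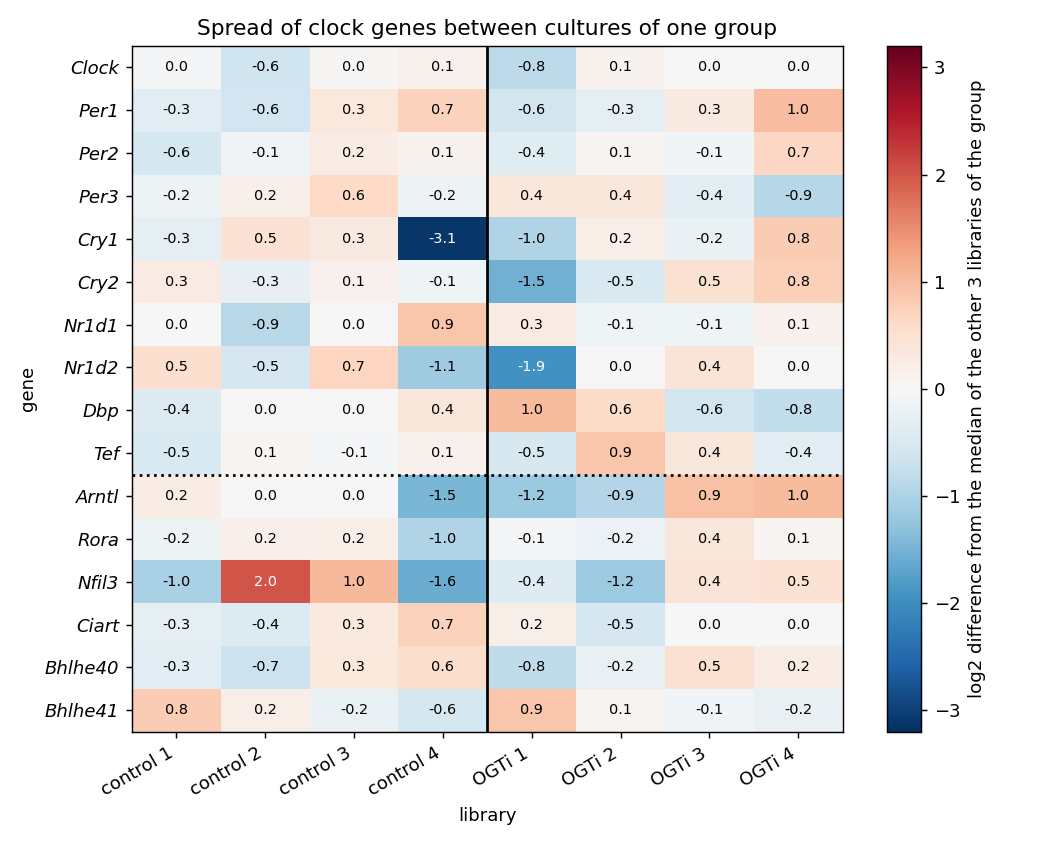
Log2 difference of each library from the median of the other 3 libraries of its group, for the 10 clock genes (above the dotted line) and 6 other clock pathway genes. The largest difference is Cry1 in control replicate 4, at -3.12.

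Some members share genomic ground with a neighbour on the opposite strand. Clock overlaps Tmem165 over 16020 bases, Per3 overlaps Uts2 over 4729, Nr1d1 overlaps Thra over 3173 and Dbp overlaps Sphk2 over 737. The libraries were stranded and were counted by strand per the study's methods. Tmem165, Thra and Sphk2 gave log2 fold changes of 0.57, -0.10 and 0.19 and did not pass (edgeR adjusted p = 0.268, 0.890 and 0.581), and Uts2 had too few counts to be tested. Per2, the gene that changed, shares no bases with an opposite-strand protein-coding gene.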

How the data were processed

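The authors aligned paired-end reads of 8 stranded libraries to mm39 with Bowtie2 2.3.5.1 and counted them with RSEM 1.3.1 (versions per the submitters' processing notes). The deposited expected counts (RSEM's estimated reads per gene) and the deposited TPM, scaled by length and depth, were used. The authors' table of comparisons (DESeq2 1.36.0 fold changes and p-values) was not used. The methods name GENCODE, whereas the deposited transcript identifiers are RefSeq ones.

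Expected counts were rounded and fitted with edgeR 4.0.16 in R 4.3.3 (TMM, genes with a total of at least 10 counts, quasi-likelihood test, replicate number as a block, Benjamini-Hochberg over 19963 genes, threshold 0.05). The block follows the study's methods. Deviations from group means correlated across genes at 0.149, 0.202, 0.0835 and 0.289 within pairs and at -0.274 to 0.183 otherwise. The common biological coefficient of variation was 0.342, so spread between cultures, not counting error, set the precision except for genes with few reads. Such genes are Hlf and, in OGTi, Npas2 and Arntl2. For scaled counts, each count was brought to the mean TMM-adjusted library size. Well-expressed genes had a mean scaled count of at least 50. Groups came from sample titles. Some genes first placed on the pathway list are not reported here. The members and lists were chosen with earlier results of these data known. Values were given for the 10 members, called pathway genes, 7 pathway genes whatever their result, and overlapping neighbours, and the other pathway genes were named without values. The fit was tested on data simulated with less spread between cultures than here and no pair effect. That test therefore does not show how the fit performs on these data. Alternatives were DESeq2 1.42.0, other scalings, filters and thresholds, no block, a length correction and leaving out each pair.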

Additional observations from a re-analysis of the deposited data

Results flagged for a closer look

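Clock in OGTi replicate 1, at 391 scaled counts, lay far below the other 3 OGTi cultures, at 695 to 750.4, and its gap to them exceeded Dixon's 95% critical value for 4 samples. Bhlhe41 in the same culture, at 886, lay far above the others, at 429.6 to 503, by the same criterion. Of 42 groups examined, about 2.1 would pass by chance, and 2 passed.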

How the results depend on the processing

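Per2 kept its direction and its call in all 11 alternatives, with log2 fold changes of -3.68 to -3.24 and a largest adjusted p of 0.00291. The number of the 10 clock genes called was 2 with DESeq2, with upper-quartile scaling, with edgeR's filterByExpr and with the length trend removed, and 1 to 2 when a pair was left out. Over all genes these settings called 4833, 3783 and 4057 of 19963 (DESeq2, upper-quartile, length) and 3704 of 14648 (filterByExpr). The gene added was Per1, also without replicate 1. At an adjusted p of at most 0.01, 2 pathway genes and 1668 of all genes were called, and leaving out a pair gave 2 to 5 and 1905 to 3124. Without the replicate block that pairs the cultures, 1 clock gene, 5 pathway genes and 2991 of all genes were called. The share of calls that were higher in OGTi was 44.3% under TMM, 54.2% under upper-quartile factors and 30.1% under library totals, and these scalings put the median gene at log2 values of 0.01, 0.13 and -0.19.

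None of the genes that turned direction was called. With library totals alone Cry2 gave -0.0228, Nr1d1 -0.16 and Tef -0.0272. Without the block Nr1d1 gave -0.10 and Nr1d2 0.0142. Nr1d2 gave 0.0422 with upper-quartile scaling and 0.16 with the length trend removed, where Bhlhe41 gave 0.10. When a pair was left out, Cry1 ranged from -0.56 to 0.70, Cry2 from -0.0873 to 0.59, Nr1d1 from -0.20 to 0.32, Nr1d2 from -0.45 to 0.52 and Dbp from -0.59 to 0.0862. The cause of these shifts was not tested. Of the values under the alternatives other than leaving out a pair, 125 kept direction and call, 4 lost a call, 9 gained one and 8 turned direction. When a pair was left out, 63 kept direction and call, 12 lost a call, 3 gained one and 6 turned direction. Depth limits Hlf, with 46 reads in all. The OGTi values of the called genes Npas2 and Arntl2 rested on 8 to 30 and 6 to 28 reads per library.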

Other observations

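In the control cultures, some genes of the REV-ERB arm followed the order of Nr1d1 in reverse and others did not. Nr1d1 was highest in replicate 4 (5047 scaled counts), followed by replicates 1, 3 and 2, and Cry1 followed the opposite order, from 892 in replicate 2 to 90.6 in replicate 4. Nfil3, another gene that REV-ERBs are known to repress, also followed the opposite order, from 791 in replicate 2 to 134 in replicate 4. Arntl (282), Rora (824) and Nr1d2 (559.8) were each lowest in replicate 4 among the controls. Clock, another gene that REV-ERBs are known to repress, did not run opposite to Nr1d1, and was highest in replicate 4 (898) and lowest in replicate 2 (541). Replicates 1 and 3 were nearly level for Nr1d1 (2744 and 2722 scaled counts) and swapped places on the TPM scale (51.3 and 52.8), so the full opposite order holds for scaled counts only. In the OGTi cultures Cry1 and Nfil3 did not follow the reverse order of Nr1d1, and both were highest in replicate 4 (1023 and 955), where Nr1d1 was second highest (2877). These are orders of 4 cultures noticed after their values were seen, in a group where replicate 4 stands apart from the others, and no test of them was made.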
